A study of Mus musculus with 2 samples.

Results

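A set of 6 genes forms the E protein and Id family followed here: Tcf3, Tcf4 and Tcf12, which encode the E proteins, and Id1, Id2 and Id3, which encode their inhibitors. Their members were taken by name, as every probe set on the array whose single platform gene symbol was 1 of these 6 genes, and the 6 genes are among 18193 genes on the array. They were read by 19 probe sets, 14 for E proteins and 5 for Ids. The data are 2 one-colour array hybridisations of lineage-marker-negative thymocytes from C57BL/6J mice, 1 array titled TKO and 1 titled DKO. By the design text, the TKO cells came from LckCre(+)Cdkn2a-/-Ring1A-/-Ring1Bfl/fl mice and the DKO cells from LckCre(-)Cdkn2a-/-Ring1A-/-Ring1Bfl/fl mice. Both groups then lack Cdkn2a, a cell-cycle inhibitor locus, and Ring1 (Ring1A), and they differ in the Lck-Cre recombinase, which acts on floxed Rnf2 (Ring1B) in T-lineage cells. Ring1 and Rnf2 are the ubiquitin ligases of Polycomb repressive complex 1. The samples' own genotype field instead names Ring1A and Ring1B as lost in DKO, with Cdkn2a lost in addition in TKO. The sources used here do not give the age or number of the animals, or whether cells were pooled.

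E proteins are basic helix-loop-helix transcription factors that bind E-box DNA as dimers. Id proteins carry the helix-loop-helix but no DNA-binding basic region, so an E protein paired with an Id cannot bind DNA. In the thymus, E2A (from Tcf3) and HEB (from Tcf12) set up T lineage commitment and hold cells at the pre-T-cell receptor checkpoint, and Id3 is induced by receptor signals. E2A also starts the B lineage, E2-2 (from Tcf4) specifies plasmacytoid dendritic cells, and Id2 is needed for natural killer and other innate lymphoid cells.

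With 1 array per genotype there is no spread between animals or cultures, and no p-value was computed. The values describe these 2 arrays, and a probe set or gene is counted as higher or lower only at 2-fold or more, a log2 ratio of 1 in size. A floor was set at the median signal of each array, 71.8 on the TKO-labelled array and 68.8 on the DKO-labelled array, and a signal below it was not counted as measured. The targeted genes did not settle the labels. Cdkn2a had a signal of 18.5 on the TKO-labelled array, which is below its floor, and 679 on the DKO-labelled array, at least 9.47-fold lower. Ring1 had 147 on the TKO-labelled and 133 on the DKO-labelled array, and the brightest Rnf2 probe set had 4384 and 4149 in the same order. By the design text Cdkn2a should be absent from both arrays, while its presence on the DKO-labelled array alone is what the genotype field describes. Ring1 should be absent from both by either text, and Rnf2 from both by the genotype field and from the TKO-labelled array by the design text. The sources used here do not place these probe sets inside or outside the deleted DNA, and a probe set outside it is no check of the label. Each array is therefore called by its title. The X-linked Xist, chosen after its values were seen, had 16502 on the TKO-labelled array and 124 on the DKO-labelled array, and the Y-linked Eif2s3y had 55.3, below the floor, and 1711. The sex of the cells therefore cannot be told apart from the label in any value below.

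None of the 6 genes reached a 2-fold difference between the arrays. Of the 19 probe sets, 18 were above the floor, all of them on both arrays, and 0 of the 18 were 2-fold higher or lower. Among all 23894 probe sets with a ratio, 3.49% passed the 2-fold rule in either direction, 2.91% higher and 0.578% lower on the TKO-labelled array. Split into quartiles of mean log2 signal, the share that passed was 4.08% in the dimmest, 4.97% and 3.21% in the next ones and 1.69% in the brightest. With each gene read by its brightest probe set, 0 of the 6 members passed, against 4.11% of 11280 genes. At those background shares a count of 0 in 18 or 6 is not a result about these genes. The log2 ratios of the 18 probe sets, TKO-labelled over DKO-labelled, ran from -0.53 to 0.94 with a median of 0.20, beside a median of -0.02 over all probe sets with a ratio. The 13 measured E protein probe sets had a median of 0.13 and the 5 Id probe sets a median of 0.66. That Id median rests on Id2, which supplied 3 of the 5 probe sets. In such bulk samples, a different number of cells of a type and a different amount of RNA per cell cannot be told apart.

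**Figure D1:**
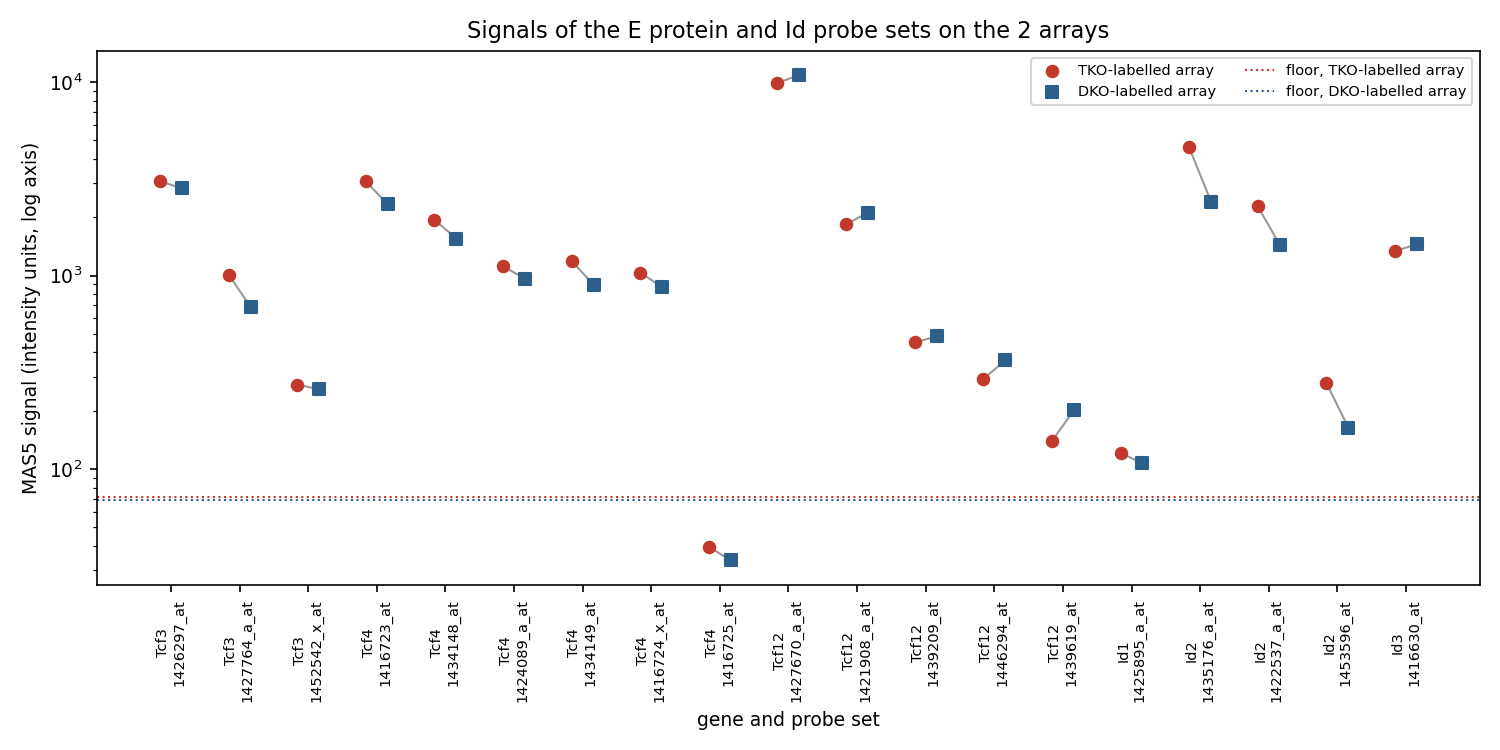
MAS5 signal (log axis) of each of the 19 probe sets on the TKO-labelled array (circles) and the DKO-labelled array (squares), with the floor of each array dotted. The 3 Id2 pairs slope down toward the DKO-labelled array, the 5 Tcf12 pairs slope up, and 1 Tcf4 probe set lies below both floors.

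Different probe sets of 1 gene on the same arrays give a measure of how far a log2 ratio can differ by the choice of probe. In 4794 genes with at least 2 probe sets above the floor on both arrays, the log2 ratios of the 2 brightest were compared. Their difference, divided by the square root of 2, had a robust SD of 0.21. Dimmer probe sets of a gene did not enter these pairs. These pairs share their hybridisations, so the SD holds no error between RNA samples or animals. Signals of different probe sets depend on the probes themselves, and levels are therefore not compared between genes.

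The sequence upstream of the start is shown for 4 of the genes, because Polycomb repressive complex 1 is known to occupy CpG-rich promoters and E proteins act through E boxes. RefSeq windows (build GRCm38.p6) matched 4 of the 6 members: Tcf3, Tcf12, Id2 and Id3. Each line gives the 250 bases before the annotated start, 5′ to 3′ on the gene's strand, and capitals mark the E-box motif CANNTG, which reads the same on both strands.
Id2, chr12:25096093-25096342, minus strand: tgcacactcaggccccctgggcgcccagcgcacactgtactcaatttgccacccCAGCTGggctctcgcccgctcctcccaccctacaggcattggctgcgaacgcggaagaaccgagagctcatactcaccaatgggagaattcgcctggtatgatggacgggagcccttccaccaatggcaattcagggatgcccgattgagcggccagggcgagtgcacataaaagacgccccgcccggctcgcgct
Id3, chr4:136143572-136143821, plus strand: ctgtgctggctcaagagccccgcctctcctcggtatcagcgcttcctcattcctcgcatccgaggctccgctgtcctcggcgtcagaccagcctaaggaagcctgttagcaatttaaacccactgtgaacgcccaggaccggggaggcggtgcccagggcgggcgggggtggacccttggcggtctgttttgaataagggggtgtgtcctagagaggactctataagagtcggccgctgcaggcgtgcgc
Tcf3, chr10:80433636-80433885, minus strand: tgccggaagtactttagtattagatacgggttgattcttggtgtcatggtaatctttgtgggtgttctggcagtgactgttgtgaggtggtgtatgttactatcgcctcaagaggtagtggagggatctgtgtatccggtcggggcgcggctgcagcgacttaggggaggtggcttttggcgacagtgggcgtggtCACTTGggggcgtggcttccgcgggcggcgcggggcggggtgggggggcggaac
Tcf12, chr9:72111820-72112069, minus strand: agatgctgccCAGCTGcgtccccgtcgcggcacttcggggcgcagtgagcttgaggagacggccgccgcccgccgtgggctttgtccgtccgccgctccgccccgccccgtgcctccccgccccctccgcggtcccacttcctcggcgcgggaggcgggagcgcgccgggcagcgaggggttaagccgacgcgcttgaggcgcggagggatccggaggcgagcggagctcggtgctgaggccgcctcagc
Tcf12 has 3 annotated starts in that table, and the first is printed. The second window had 1 E box and an observed over expected CpG ratio of 1.04, and the third had 0 E boxes and 0 CpG dinucleotides. The Id2 window held 1 E box, CAGCTG, which begins 196 bases before the start, and the Id3 window held 0. The Tcf3 window held CACTTG 54 bases before the start, and the Tcf12 window held CAGCTG 240 bases before it. An E box of this spelling was found in 66.2% of 32851 such windows of mouse genes, so its presence sets no gene apart. A search for GCGNGGGCG, a motif bound by Egr factors, on both strands found none in these windows, against 4.7% of all windows. At that share, finding none in so few windows is not a result about these genes. The observed over expected CpG ratio was 0.74 for Id2 and 0.73 for Id3, each with 18 CpG dinucleotides, and 1.001 for Tcf3 and 1.03 for the first Tcf12 window, against a median of 0.37 over all windows. A ratio of at least 0.6 was found in 34% of windows.

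Tcf3 encodes E2A, whose splice forms E12 and E47 both bind E boxes. Its brightest probe set, 1426297_at, had a signal of 3081 on the TKO-labelled array and 2820 on the DKO-labelled array, a log2 ratio of 0.13. Probe set 1427764_a_at had 1012 on the TKO-labelled array and 688 on the DKO-labelled array, a log2 ratio of 0.56. Probe set 1452542_x_at, of a type that can cross-hybridise, had 273 on the TKO-labelled array and 258 on the DKO-labelled array, a log2 ratio of 0.08. The 3 probe sets lay on the same side of 0 but disagreed in size, with a mean log2 ratio of 0.26 ± 0.26 (SD over 3 probe sets of the same arrays). Of 1336 genes with exactly 3 measured probe sets, 21.3% had all 3 on the positive side. The sources used here do not say which splice forms each probe set reads.

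Tcf12 encodes HEB, the partner of E2A in thymocytes. Its brightest probe set, 1427670_a_at, had a signal of 9917 on the TKO-labelled array and 10891 on the DKO-labelled array, a log2 ratio of -0.14. The next, 1421908_a_at, had 1842 on the TKO-labelled array and 2114 on the DKO-labelled array, a log2 ratio of -0.20. Both of these bright probe sets were slightly lower on the TKO-labelled array. Probe set 1439209_at had 451 on the TKO-labelled array and 485 on the DKO-labelled array, a log2 ratio of -0.11. Probe set 1446294_at had 292 on the TKO-labelled array and 364 on the DKO-labelled array, a log2 ratio of -0.32. The dimmest of the 5, 1439619_at, showed the largest difference, with 139 on the TKO-labelled array and 201 on the DKO-labelled array, a log2 ratio of -0.53. All 5 were thus on the negative side, with a mean of -0.26 ± 0.17 (SD over 5 probe sets). Of 240 genes with exactly 5 measured probe sets, 15.4% had all 5 on that side, so the shared sign is common on these arrays.

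Tcf4 encodes E2-2, the E protein of plasmacytoid dendritic cells, which B-lineage cells express as well. Probe set 1416723_at had a signal of 3068 on the TKO-labelled array and 2335 on the DKO-labelled array, a log2 ratio of 0.39. Probe set 1434148_at had 1941 on the TKO-labelled array and 1554 on the DKO-labelled array, a log2 ratio of 0.32, and 1434149_at had 1189 and 896 in the same order, a log2 ratio of 0.41. Probe set 1424089_a_at had 1118 on the TKO-labelled array and 961 on the DKO-labelled array, a log2 ratio of 0.22, and 1416724_x_at had 1036 and 869 in that order, a log2 ratio of 0.25. The sixth, 1416725_at, was below the floor on both arrays, at 39.5 on the TKO-labelled and 33.7 on the DKO-labelled array, and has no ratio. The 5 measured probe sets lay close together, with a mean log2 ratio of 0.32 ± 0.08 (SD over 5 probe sets), a 1.25-fold difference. All 5 were positive, as in 12.5% of the 240 genes with 5 measured probe sets, and 14.1% of genes had a ratio at or above that of the brightest one.

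Id2 stood highest of the 6 genes. Id2 inhibits E proteins in innate lymphoid, natural killer and dendritic cells, and its loss blocks the formation of natural killer and other innate lymphoid cells. Its brightest probe set, 1435176_a_at, had a signal of 4608 on the TKO-labelled array and 2405 on the DKO-labelled array, a log2 ratio of 0.94 (1.92-fold), just under the 2-fold rule. Probe set 1422537_a_at had 2285 on the TKO-labelled array and 1443 on the DKO-labelled array, a log2 ratio of 0.66 (1.58-fold). Probe set 1453596_at had 279 on the TKO-labelled array and 163 on the DKO-labelled array, a log2 ratio of 0.77 (1.71-fold). The 3 probe sets were alike in direction and size, with a mean of 0.79 ± 0.14 (SD over 3 probe sets), or 1.73-fold. In the brightest quartile of probe sets, where the central 95% of log2 ratios ran from -0.47 to 0.76, 1.67% lay at or above 1435176_a_at and 3.13% at or above 1422537_a_at. In the quartile of 1453596_at, where the central 95% ran from -0.76 to 1.27, 6.53% lay at or above it. Of the 3 Id2 probe sets, 1435176_a_at alone was outside the central 95% of its quartile. Among genes, 4.05% had a log2 ratio at or above that of Id2. Of the 1336 genes with exactly 3 measured probe sets, 26 (1.95%) had all 3 at or above the lowest Id2 value, a limit taken from the Id2 values themselves.

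Id3 and Id1 had 1 probe set each. Id3, the inhibitor induced by pre-T-cell receptor and T cell receptor signals, had a signal of 1335 on the TKO-labelled array and 1455 on the DKO-labelled array, a log2 ratio of -0.12. Id1, better known from stromal and stem cells and a target of bone morphogenetic protein signals, had 121 on the TKO-labelled array and 107 on the DKO-labelled array, a log2 ratio of 0.18. Id1 lay in the dimmest quartile of probe sets with a ratio, where the central 95% of log2 ratios ran from -0.78 to 1.13.

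**Figure D2:**
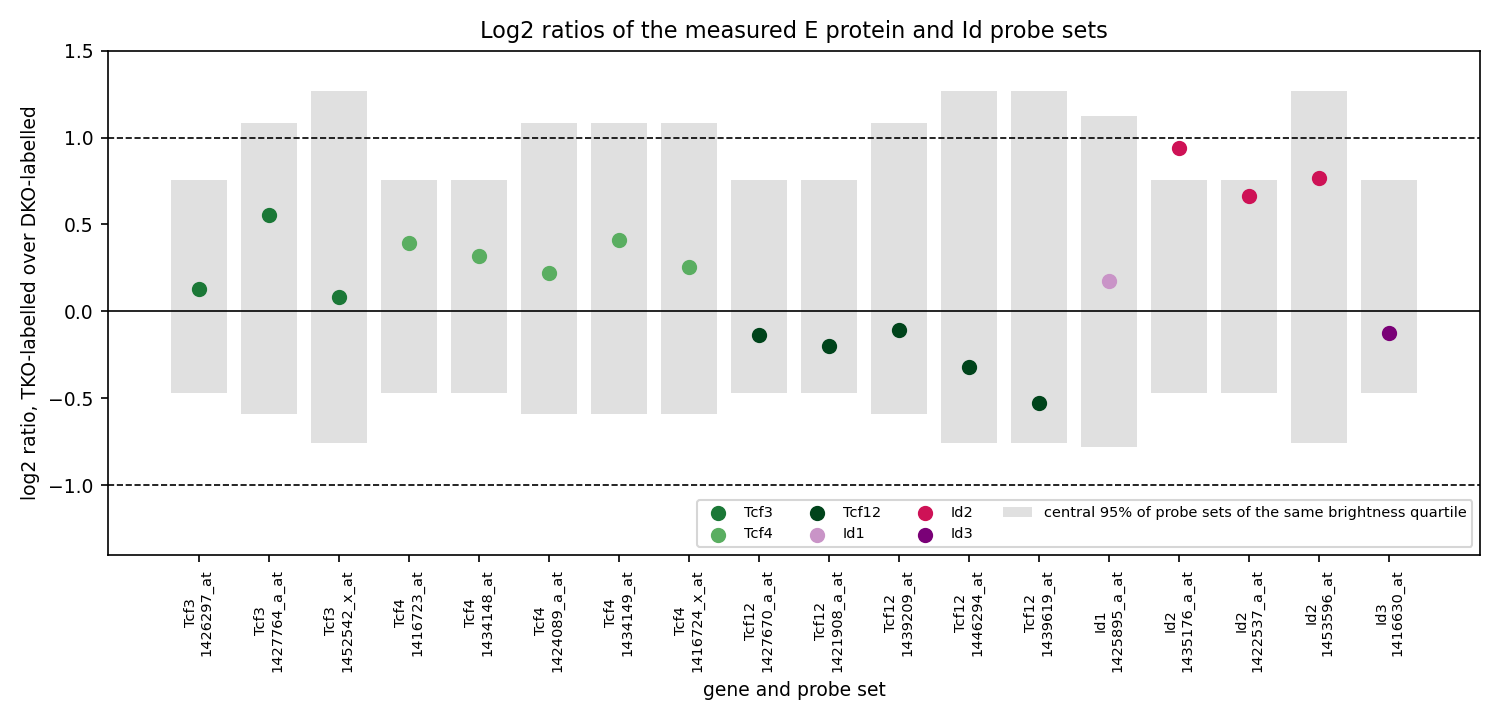
Log2 ratio, TKO-labelled over DKO-labelled, of the 18 measured probe sets (points), with the central 95% of all probe sets in the same quartile of mean signal (grey bars) and the 2-fold limits (dashed). The 3 Id2 probe sets lie between 0.66 and 0.94, the 5 Tcf4 probe sets between 0.22 and 0.41, and the 5 Tcf12 probe sets between -0.53 and -0.11, and 1435176_a_at of Id2 is outside its grey bar.

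**Figure D3:**
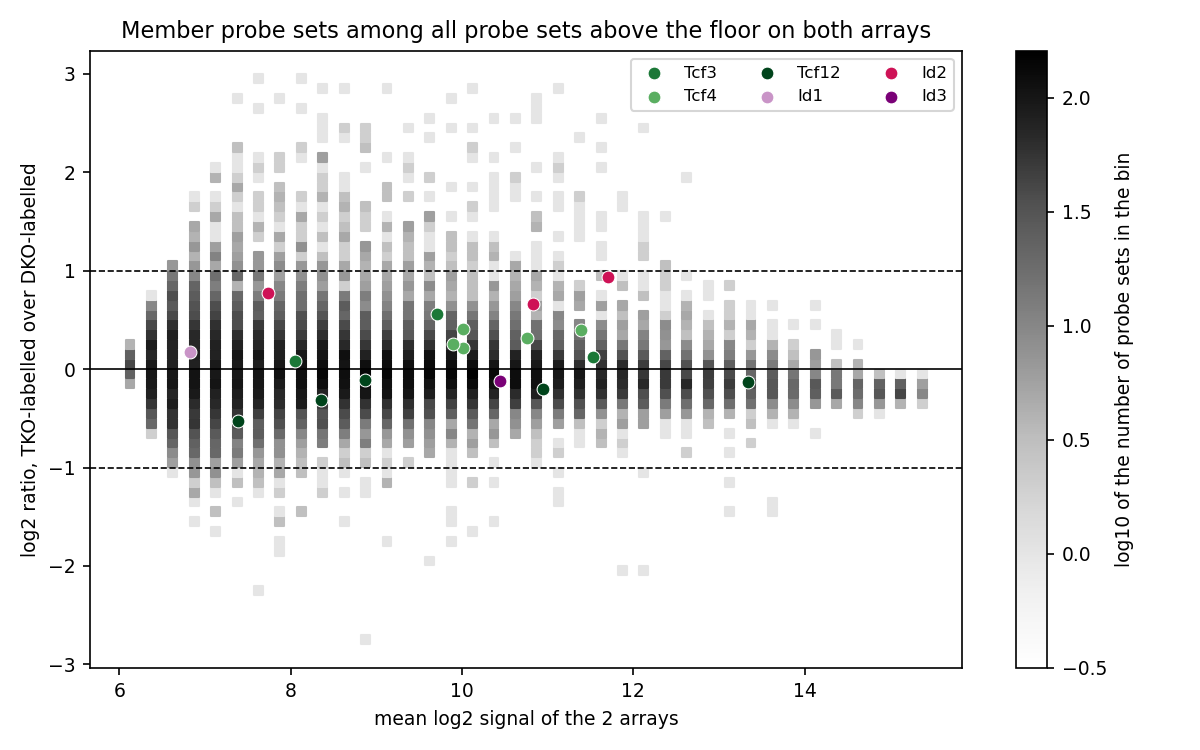
Log2 ratio against mean log2 signal for the 18 measured member probe sets (coloured) over all 21144 probe sets above the floor on both arrays (grey bins, darker for more probe sets, drawn for log2 ratios between -3 and 3). All coloured points lie between the dashed 2-fold lines, with Id2 nearest to the upper one.

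The cofactors that E proteins work with included 1 gene past the 2-fold rule. Lmo2, the LIM-only protein that bridges TAL1 or LYL1 dimers with E proteins to LDB1, had a signal of 1656 on the TKO-labelled array and 468 on the DKO-labelled array, 3.54-fold higher. Ldb1, the adaptor of that complex, had 611 on the TKO-labelled array and 861 on the DKO-labelled array, a log2 ratio of -0.50, and Lmo1 had 75.4 and 112 in that order, a log2 ratio of -0.57. Of the 12 cofactors and corepressors listed, 9 had a ratio. The median of the 9 log2 ratios was 0.13, with 1 gene higher, 0 lower and 8 neither. Among all genes with a ratio, 3.58% were 2-fold higher and 0.532% were 2-fold lower, with a median of -0.03, and the lists that follow are read against these shares.

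Of 15 other helix-loop-helix inhibitors and tissue-specific partners, 14 had a probe set and 8 of these were below the floor on both arrays, among them the fourth Id gene, Id4, at 49.8 on the TKO-labelled array and 33.2 on the DKO-labelled array. Of the 6 with a ratio, 1 was higher and 0 lower. Heyl, a Notch-responsive repressor, had 174 on the TKO-labelled array and 76.8 on the DKO-labelled array, 2.27-fold higher, but it had no ratio once the floor was raised to the 75th percentile. Hes1, the main Notch-responsive repressor of thymocytes, had 798 on the TKO-labelled array and 1080 on the DKO-labelled array, a log2 ratio of -0.44. Hey1 had 351 on the TKO-labelled array and 259 on the DKO-labelled array, a log2 ratio of 0.44.

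Genes that act upstream of the Ids were higher in 3 of 16 cases and lower in 0, and the median of their log2 ratios was 0.28. Egr2, an immediate-early factor of receptor signals that acts upstream of Id3, had 526 on the TKO-labelled array and 58.8, under the floor, on the DKO-labelled array, at least 7.64-fold higher. Its second probe set was above the floor on both arrays, with 294 and 74.9 in that order, a log2 ratio of 1.97. Egr1 had 1809 on the TKO-labelled array and 1027 on the DKO-labelled array, a log2 ratio of 0.82. Egr3 had 294 on the TKO-labelled array and 134 on the DKO-labelled array, 2.20-fold higher, but its second probe set went the other way, with 81.3 and 142 in that order, a log2 ratio of -0.81. Bmpr1a, a receptor for the bone morphogenetic proteins that induce Id genes, had 950 on the TKO-labelled array and 406 on the DKO-labelled array, 2.34-fold higher, and its 4 other probe sets with a ratio had log2 ratios between 0.16 and 0.96, bounds included. Id3 itself, the Egr-responsive member, was at -0.12. When the floor was raised to each array's 75th percentile, the bound of the brightest Egr2 probe set shrank to a log2 ratio of 0.33. The second Egr2 probe set lay below that floor on both arrays.

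**Figure D4:**
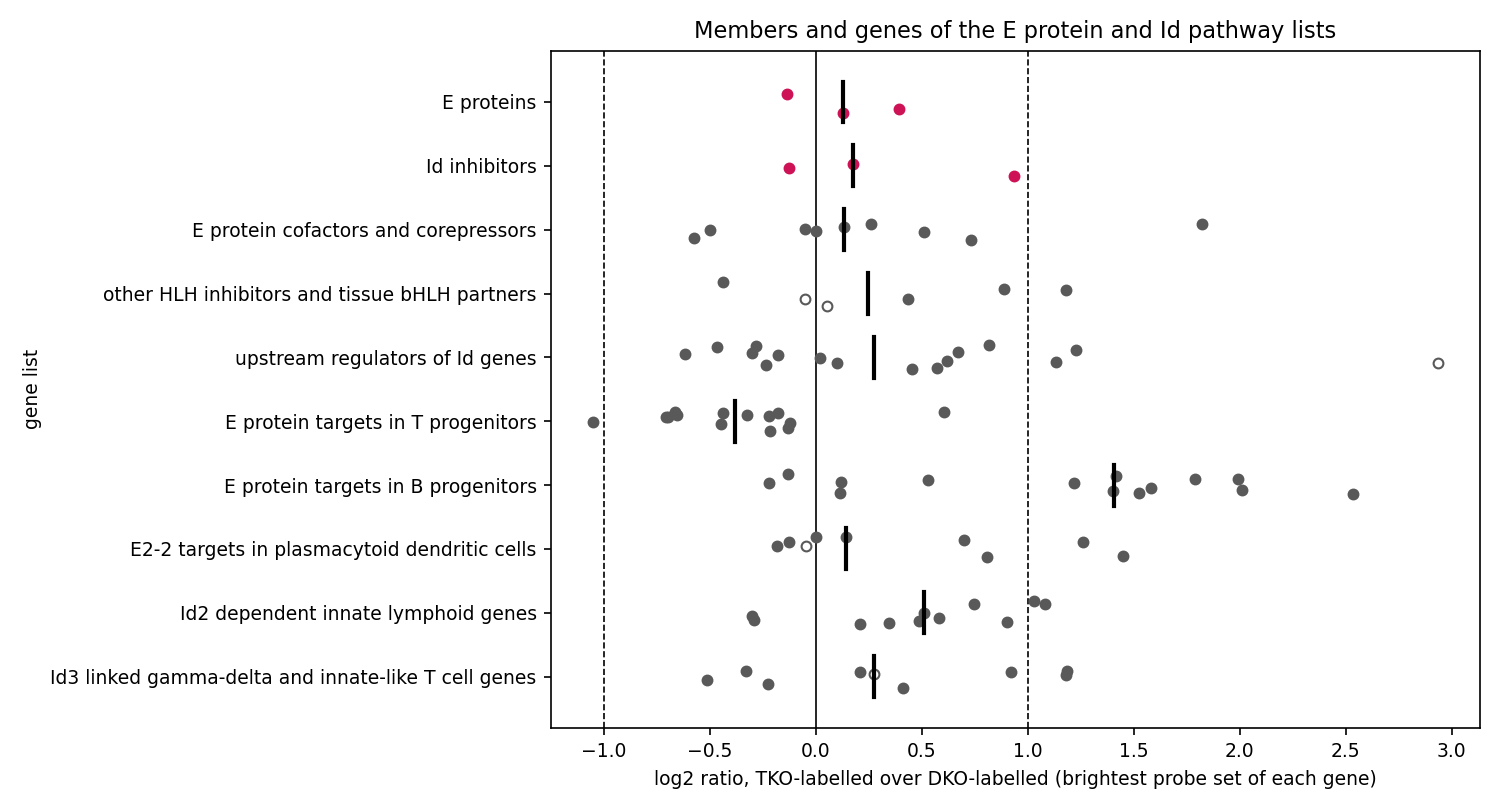
Log2 ratio, TKO-labelled over DKO-labelled, of the members (top 2 lines) and of each gene list, with 1 point per gene, a black bar at the median and dashed 2-fold limits. Open circles are genes above the floor on 1 array, with the other signal raised to the floor. The list of E protein targets in B progenitors has its median at 1.41, and the list of targets in T progenitors at -0.38.

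Genes known as E protein targets were listed for the T and for the B lineage, and Rag1 and Rag2 stand in both lists. Hes1, given above among the helix-loop-helix genes, also stands in the T list. In T progenitors, 0 of 14 measured targets were higher and 1 was lower. Their log2 ratios had a median of -0.38, and 13 of the 14 were negative. The list does not record whether E proteins raise or lower each target, so the shared sign is no measure of E protein activity. Il2ra, the CD25 chain of the interleukin-2 receptor, was lower, at 3162 on the TKO-labelled array and 6536 on the DKO-labelled array, 2.07-fold. Its second probe set had a log2 ratio of -0.86. Ptcra, the alpha chain that pairs with rearranged beta chains before the alpha locus rearranges, had 2564 on the TKO-labelled array and 4028 on the DKO-labelled array, a log2 ratio of -0.65. The recombinase genes Rag1 and Rag2 had log2 ratios of -0.22 and -0.13.

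In B progenitors, 9 of 14 measured targets were higher and 0 lower, and the median of the log2 ratios was 1.41. Of the 14 ratios, 12 were positive, and the 2 negative ones were those of Rag1 and Rag2. The rise was not shared by all bright targets. Vpreb1 had 6691 on the TKO-labelled array and 6167 on the DKO-labelled array, a log2 ratio of 0.12. Igll1 had 8657 and 7988 in that order, a log2 ratio of 0.12. Ebf1, the factor that E2A induces to start the B lineage, had 3649 on the TKO-labelled array and 630 on the DKO-labelled array, 5.79-fold higher. Pax5, which fixes B lineage identity, had 299 on the TKO-labelled array and 74.1 on the DKO-labelled array, 4.04-fold higher, while its second probe set, measured on the TKO-labelled array alone, gave a log2 bound of 0.24. Foxo1, which acts with E2A and Ebf1, had 1101 on the TKO-labelled array and 764 on the DKO-labelled array, a log2 ratio of 0.53. The other members past 2-fold were Blnk, Bach2, Cd79b, Vpreb3, Pou2af1, Irf4 and Cd79a, at log2 ratios between 1.22 and 1.99. With the mean over probe sets in place of the brightest one, Irf4 was at 0.94.

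Most genes of the B progenitor list went in the same direction as the B lineage markers. All 10 measured B lineage markers were 2-fold higher, and their summed signal was 32046 on the TKO-labelled array and 7729 on the DKO-labelled array; none of the 10 was below the floor on either array. Of these 10 markers, 5 (Ebf1, Pax5, Blnk, Cd79a and Cd79b) also stand in the list of targets. The other B lineage markers past 2-fold were Ms4a1, Cd22, Cd72, Fcrla and Bank1, at log2 ratios between 1.84 and 2.89. Of 10 measured T lineage markers, 0 passed 2-fold and 9 ratios were negative. Their summed signal was 60860 on the TKO-labelled array and 86609 on the DKO-labelled array, so both arrays carried the labelled lineage. Cd3e, Cd3g and Bcl11b stand both among these markers and in the list of targets in T progenitors. The cells had been depleted by lineage-marker beads, a step meant to remove cells that carry the chosen markers. The sources used here do not name these markers, so whether B-lineage or mature T cells were to be removed is not known here. The part of B-lineage cells in the Tcf4 and Tcf3 values was not tested.

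The plasmacytoid dendritic program that E2-2 controls showed mixed values. Of 9 measured genes, 2 were higher and 0 lower, and the log2 ratios had a median of 0.14. Spib, an Ets factor shared by plasmacytoid dendritic and B cells, had 2885 on the TKO-labelled array and 1055 on the DKO-labelled array, 2.73-fold higher. Zeb2, a zinc finger repressor, had 1464 on the TKO-labelled array and 611 on the DKO-labelled array, 2.40-fold higher, and its 4 other probe sets had log2 ratios from 0.62 to 2.12, a bound included. Irf7 and Irf8 had log2 ratios of 0.70 and 0.81. The summed signal of 10 plasmacytoid markers was 8256 on the TKO-labelled array and 7422 on the DKO-labelled array. Of these markers, 8 had a ratio and 1 of the 8 was 2-fold higher. The median of the 8 log2 ratios was -0.005, with 3 positive, 4 negative and 1 bound of open sign. It lies between 2 ratios that are both bounds, so it is not a measured value. Pacsin1 had 336 on the TKO-labelled array and 93.2 on the DKO-labelled array, 3.61-fold higher. Bst2 had 2707 on the TKO-labelled array and 3071 on the DKO-labelled array, and Ccr9 had 4327 and 3006 in that order. These 2 genes gave most of both sums. Klk1 and Smim5 were on the negative side, at log2 ratios of -0.56 and -0.55. Siglech and Tlr7 were below the floor on both arrays. Siglech, Tlr7, Bst2 and Tlr9 stand both among these markers and in the E2-2 list. Cbfa2t3 stands both in the E2-2 list and among the cofactors and corepressors.

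The list of genes tied to Id2 in innate lymphoid cells is not one of Id2-dependent genes alone. It includes Nfil3, which also stands among the genes upstream of the Ids. Gata3 of this list is also a T lineage marker, and Zbtb16 also stands among the genes linked to Id3. Most ratios of the list were positive, and a link to the Id2 value was not tested. Of 11 measured genes, 2 were higher, 0 were lower and 9 ratios were positive. The median of the log2 ratios was 0.51. Klrd1, the CD94 receptor of natural killer cells, had 1998 on the TKO-labelled array and 944 on the DKO-labelled array, 2.12-fold higher, and the cytokine receptor Il18r1 had 840 and 411 in that order, 2.04-fold higher. Both lay near the limit, and after quantile normalization 1 gene of the list passed. Zbtb16, the factor of innate-like T cells, had a log2 ratio of 0.21, Nfil3, which acts upstream of Id2, had -0.30, and Tox had 0.35.

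Marker lists of the cells in which Id2 is known to be high gave these values beside its own. Of 9 measured natural killer and innate lymphoid markers, 1 was 2-fold higher and 0 lower. Their median log2 ratio was 0.58, 8 of the 9 ratios were positive, and the gene past 2-fold was Klrd1. Ncr1, Klrd1, Eomes, Tbx21 and Il2rb also stand in the innate lymphoid list above, so the 2 lists are not separate readings. The summed signal was 24507 on the TKO-labelled array and 26050 on the DKO-labelled array, of which Gzma alone gave 18012 and 21801 in that order. Without Gzma the other 8 summed to 6495 on the TKO-labelled array and 4249 on the DKO-labelled array, 1.53-fold higher. Of 8 measured conventional dendritic cell markers, 5 were higher and 0 lower, with a summed signal of 27688 on the TKO-labelled array and 7223 on the DKO-labelled array. The 5 were Ciita, Cd74, H2-Aa, H2-Ab1 and H2-Eb1, class II genes that B cells express too. Zbtb46 was measured on the TKO-labelled array alone, at 132 against 67.7 on the DKO-labelled array, at least 1.91-fold higher, and Batf3 was also measured there alone. Itgax had 230 on the TKO-labelled array and 205 on the DKO-labelled array, and Flt3 and Xcr1 were below the floor on both arrays. Of 9 measured macrophage and neutrophil markers, 2 were higher and 2 lower, with a summed signal of 4753 on the TKO-labelled array and 4198 on the DKO-labelled array. Lyz2 and Csf1r were the higher genes, at log2 ratios of 1.32 and 1.69, and S100a9 and Ngp the lower ones, at -1.16 and -1.54. A lineage depletion can be aimed at such cells, too, and their part in the Id2 value was not tested. Stromal and endothelial markers, which bear on Id1, had 6 of 9 genes below the floor on both arrays. They summed to 783 on the TKO-labelled array and 541 on the DKO-labelled array. Like the other marker sums, these take in the signals below the floor as deposited. The 7 thymic epithelial markers summed to 1352 on the TKO-labelled array and 1466 on the DKO-labelled array, and 3 erythroid markers were below the floor on both arrays.

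Genes linked to Id3 in gamma-delta and innate-like T cells had 2 of 9 measured members higher and 0 lower, and the median of their log2 ratios was 0.28. The middle ratio is that of a gene below the floor on the DKO-labelled array, so this median is a bound. Etv5, an Ets factor, had 1191 on the TKO-labelled array and 523 on the DKO-labelled array, 2.28-fold higher, and its second probe set with a ratio was at 0.72. Blk, a Src-family kinase of B cells and of interleukin-17-producing gamma-delta T cells, had 1006 on the TKO-labelled array and 444 on the DKO-labelled array, 2.27-fold higher. Sox13 and Sox4, high-mobility-group factors of gamma-delta cells, had log2 ratios of -0.33 and -0.22.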

How the data were processed

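The authors deposited array intensity values on a linear scale, 1 MAS5 signal per probe set, and MAS5 is named per the submitters' processing notes without version or settings. Per the labels' protocols, lineage-negative thymocytes were obtained by bead depletion and 6 ug of total RNA went into each biotinylated cRNA. Both arrays had a mean signal of 497 once 2% was trimmed from either end. Of 45037 probe sets, 34945 carried 1 gene, 932 several and 9160 were not listed in the platform annotation; 99.4% of the first were matched by Entrez ID to RefSeq symbols (GRCm38.p6).

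The arrays were grouped by title and compared as TKO-labelled over DKO-labelled. Signals below an array's median were raised to it before the log2 ratio was taken, which shrinks ratios of dim genes; a ratio against such a floor is a bound, written as at least. Each gene was read by the brightest of its probe sets, by mean log2 signal. With 1 array each, any batch coincides with the label, and the number of arrays limits the precision. Members and lists were chosen with earlier results of these data known, and their counts and medians are descriptions. Named genes are the members, the targeted genes, the first 3 genes of each list as written and every list gene past 2-fold; of the marker lists, genes past 2-fold were named. Vpreb1, Igll1, Bst2, Ccr9, Siglech, Tlr7, Klk1, Smim5, Zbtb46, Batf3, Itgax, Flt3, Xcr1 and Gzma were named after the values were seen. The sum without Gzma and the genes named as shared between lists were added after the values were seen as well. Listed genes without a probe set of 1 gene were not analysed here. Scripts were tested on simulated data. Tools were Python 3.11.15, numpy 2.4.6, pandas 2.3.3, scipy 1.17.1, statsmodels 0.14.6 and matplotlib 3.10.9. Alternatives were other scalings, floors, a mean over probe sets and probe set types.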

Additional observations from a re-analysis of the deposited data

How the results depend on the processing

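The count of members past 2-fold was 0 for probe sets and 0 for genes under every alternative run: centring of the log2 ratios on a median of 0, quantile normalization, a lowess trend removed (span 0.3), floors at the 25th and at the 75th percentile of signal, the mean over probe sets (genes only), and _x_at and _s_at probe sets left out. At the floor of the 75th percentile, 13 member probe sets and 5 member genes had a ratio. Over these settings the log2 ratio of Id2 ran from 0.79 as the mean over probe sets to 0.996 after lowess, just under the limit, that of Tcf4 from 0.32 to 0.44, Tcf3 from 0.13 to 0.26, Tcf12 from -0.26 to -0.01, Id1 from 0.12 to 0.21 and Id3 from -0.14 to -0.09. The E protein median ran from 0.13 to 0.24 and the Id median from 0.66 to 0.70.

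The genome-wide background depended on the floor. At the 25th percentile 962 genes were 2-fold higher and 434 lower, and at the 75th 147 and 14, against 404 and 60 at the median. Among the lists, Il2ra was not 2-fold lower after lowess or as the mean over probe sets, so that 0 targets in T progenitors passed. Of the upstream regulators, 1 passed 2-fold at the 75th percentile floor and 1 as the mean over probe sets, where Egr3 was at 0.16 and Bmpr1a at 0.79. As the mean over probe sets Etv5 was at 0.95 and Pax5 at 1.13, and at the 75th percentile floor Cd79a was at 0.70. After quantile normalization 1 innate lymphoid gene passed. At the 75th percentile floor Heyl had no ratio and 0 of the other helix-loop-helix genes passed. At the 25th percentile floor 1 of 10 genes linked to Id3 was 2-fold lower, against 0 of 9 at the median, and as the mean over probe sets 1 was higher. The cause was not tested. No paired analysis was possible because each label has 1 array. Detection calls were not used here, so the floor alone decides which dim probe sets are measured.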
